A study of Mus musculus with 6 samples.

Results

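A set of 9 genes of the aryl hydrocarbon receptor (AHR) pathway and of phenol conjugation were followed in RAW 264.7 cells, a mouse macrophage line established from a tumour induced by Abelson murine leukaemia virus. They are Ahr, Arnt, Ahrr, Cyp1a1, Cyp1b1, Tiparp, Ugt1a6a, Ugt1a7c and Sult1a1, and they were picked out of the table by gene symbol, with no threshold on a measured value. All 9 were found among the 34745 genes of the deposited table, and 5 of them (Arnt, Ahrr, Tiparp, Ugt1a6a and Ugt1a7c) had enough counts to be among the 11711 genes tested. RNA sequencing was done on 3 libraries of cells treated with bisphenol AP (BPAP), a bisphenol, and on 3 libraries of cells given the solvent DMSO. Both groups were grown in DMEM with fetal bovine serum. The series is about lung fibrosis after bleomycin and macrophage function. These libraries are of 1 cell line in culture, and neither the dose of BPAP nor the time of exposure is given in the sources used here. The labels do not say whether replicates were separate cultures, so the tests weigh the treatment against a spread between libraries that may be only technical.

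AHR is a transcription factor of the bHLH-PAS family that rests in the cytoplasm with HSP90 and partner proteins. After binding a ligand it enters the nucleus, pairs with ARNT and binds xenobiotic response elements (XREs), whose core is GCGTG. Its classical targets are the cytochrome P450 genes Cyp1a1 and Cyp1b1 and the genes of its own inhibitors, Ahrr and Tiparp. Phenols, bisphenols among them, are cleared mainly by conjugation: UDP-glucuronosyltransferases (UGTs) attach glucuronic acid and cytosolic sulfotransferases (SULTs) attach sulfate. Ugt1a6a codes for a UGT of small planar phenols and is itself an AHR target in rodents, and Sult1a1 codes for the main phenol sulfotransferase of the liver.

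The XRE core was looked for in the 300 bases around each start site, because the motif is what the members' promoters could share. RefSeq promoters of build GRCm38.p6 were found for 8 of the 9 members, all but Ahr. The letters GCGTG, on either strand, stood in 5 of these 8 promoters (Arnt, Ahrr, Cyp1a1, Cyp1b1 and Tiparp), and in 10639 of all 32851 promoters of this length (32.4%). Ahrr had 3 copies and each of the others had 1, while the promoters of Ugt1a6a, Ugt1a7c and Sult1a1 had none. The Ugt1a6a window was chr1:88134559-88134858. The Ugt1a6a transcript whose join is printed further below starts at chr1:88138378, and that start was not scanned. Sites outside the 300 bases were not looked for in any gene. The longer TNGCGTG, which contains the core, was in 5.07% of all promoters and, among the members, in Ahrr alone. The windows below, 35 bases each, are given 5′ to 3′ on the strand of the gene, with the motif in capitals. GCGTG in capitals is the core on the gene's strand, and CACGC is the core on the opposite strand. They are chr3:95434346-95434380 (Arnt, plus strand), chr13:74292419-74292453, chr13:74292394-74292428 and chr13:74292339-74292373 (Ahrr, minus strand), chr9:57697544-57697578 (Cyp1a1, plus strand), chr17:79715118-79715152 (Cyp1b1, minus strand) and chr3:65528262-65528296 (Tiparp, plus strand).
Arnt: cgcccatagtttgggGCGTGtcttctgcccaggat
Ahrr, farthest from the start site: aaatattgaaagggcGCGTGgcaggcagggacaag
Ahrr, middle: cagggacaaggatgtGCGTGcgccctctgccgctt
Ahrr, nearest to the start site: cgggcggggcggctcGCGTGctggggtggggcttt
Cyp1a1: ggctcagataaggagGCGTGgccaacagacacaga
Cyp1b1: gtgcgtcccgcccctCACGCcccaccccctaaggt
Tiparp: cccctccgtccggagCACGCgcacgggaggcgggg
The capitals begin 29 bases before the start site in Arnt, 107, 82 and 27 bases before it in Ahrr, 54 in Cyp1a1, 76 in Cyp1b1 and 170 in Tiparp. The nearest Ahrr copy is the one inside TNGCGTG. A match gives the letters only, and no binding was measured here.

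The libraries held 12056332 to 12427563 counts in BPAP cells and 11084705 to 13806559 counts in DMSO cells. Of 12 macrophage markers, 11 had counts and Mertk had none, and their summed level was 6306 to 6834 CPM (counts scaled to a library total of 1000000) in BPAP libraries and 5793 to 6342 CPM in DMSO libraries. Single markers moved both ways: Lyz2, Cd14, Adgre1, Tyrobp and Spi1 rose, Cd14 the most (2.46-fold, edgeR adjusted p = 0.0121), while Ptprc fell 1.56-fold (0.00181) and Csf1r 1.33-fold (0.0130). After a correction for exon length and GC content, described below, only Cd14 and Csf1r of these passed, and the part of these shifts in the members' values was not tested. Without the correction, the Cd14 call was lost when DMSO 1 was left out (adjusted p = 0.0590). The Csf1r call was lost without BPAP 1 (0.0502) or DMSO 2 (0.0520). Fibroblast, epithelial, hepatocyte and lymphocyte markers were at or near 0, with sums of at most 0.581 CPM in BPAP libraries and 1.16 CPM in DMSO libraries. Mitochondrial genes took 6.53% to 7.55% of the counts of BPAP libraries, and 10.8%, 7.02% and 7.35% of those of DMSO libraries 1 to 3. The part of DMSO 1, which stands apart, in the results was tested only by leaving it out.

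Of the 5 tested members, Ugt1a6a rose in BPAP cells and 0 fell (edgeR's quasi-likelihood test, Benjamini-Hochberg adjusted p of at most 0.05). Over all genes tested, 31.7% passed, with 16.2% higher and 15.5% lower, and the median log2 fold change was 0.02. The BPAP and DMSO libraries did not overlap for 2 of the 5 members (Arnt and Tiparp), beside 49.0% of all genes tested. All log2 fold changes are BPAP minus DMSO. In bulk libraries, more cells with a transcript and more of it per cell cannot be told apart.

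**Figure D1:**
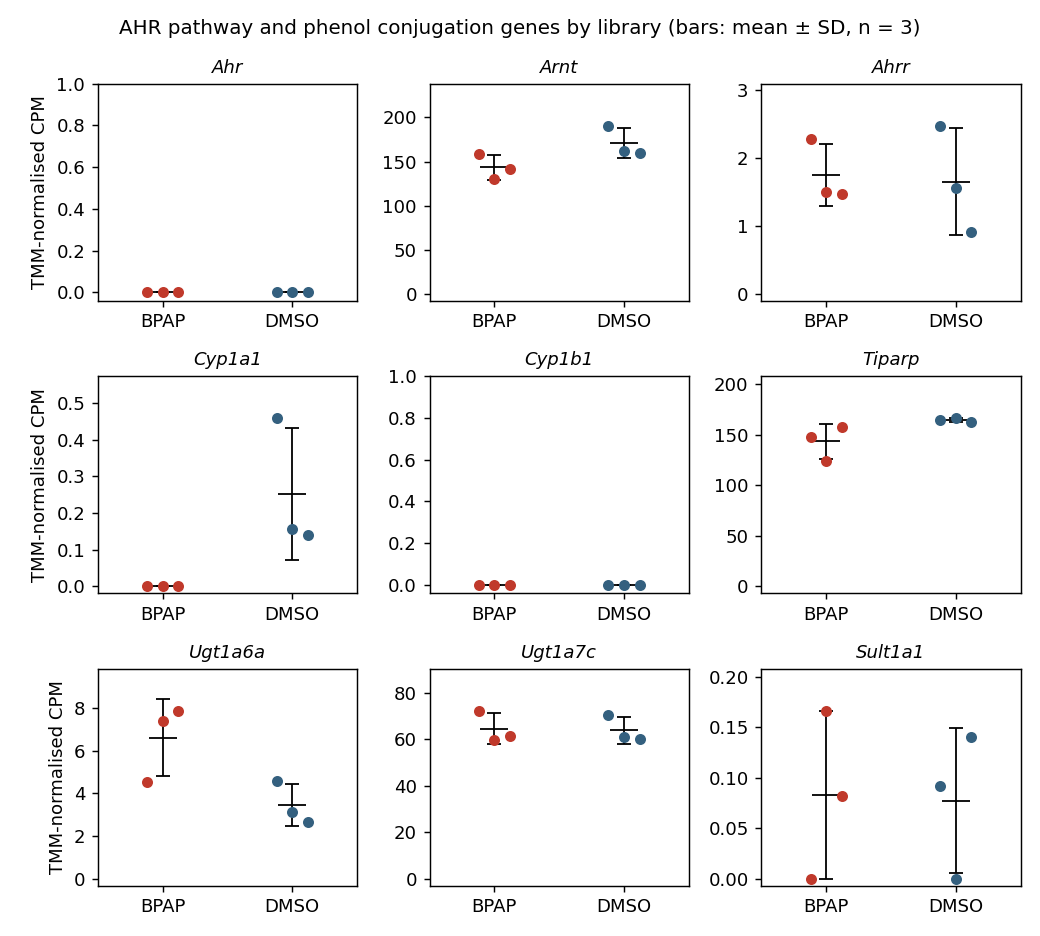
Level of each of the 9 genes in TMM-normalised CPM (y axis, linear, a separate scale for each gene) in the 3 BPAP and 3 DMSO libraries; points are libraries in replicate order, horizontal bars are means and error bars are SD (n = 3). Ahr and Cyp1b1 are at 0 in every library, Cyp1a1 has counts only in DMSO libraries, and for Ugt1a6a the BPAP 1 point (4.55 CPM) lies beside DMSO 1 (4.59 CPM).

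Transcripts of the receptor itself were not detected. Ahr (ENSMUSG00000019256, chr12:35497974-35535038 on GRCm38) had 0 counts in all 6 libraries. Over the 74350574 counts of the series this allows a level of up to 0.0403 CPM, and in the smallest library up to 0.271 CPM, taking 3 counts as the limit and covering counting error only. Its merged exons span 6163 bases, of which 127 (2.06%) are also exons of Gm48236 on the opposite strand. Most of the Ahr exon sequence is thus shared with no other annotated gene.

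Arnt (ENSMUSG00000015522, chr3:95434388-95497240) encodes the nuclear partner of AHR, which also pairs with the hypoxia-inducible factors. Its level was 158, 130 and 142 CPM in BPAP libraries 1 to 3 and 191, 162 and 159 CPM in DMSO libraries 1 to 3. Every BPAP library was below every DMSO library, but BPAP 1 and DMSO 3 were less than 2 CPM apart. The means were 143 ± 14.1 CPM in BPAP cells and 171 ± 17.3 CPM in DMSO cells (SD, n = 3 each), a log2 fold change of -0.25 with a 95% interval of -0.49 to -0.02. The difference did not pass the threshold (SE 0.11, edgeR adjusted p = 0.0889). Arnt's merged exons are long, 8007 bases against a median of 4298 over the genes tested. After a correction for exon length and GC content (the trend of each library with both taken out as an offset), Arnt stood at -0.05 (adjusted p = 0.725).

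Ahrr (ENSMUSG00000021575, chr13:74211118-74292331), the gene with 3 copies of the core in its promoter, encodes the AHR repressor, which competes with AHR for ARNT. Counts were low, at 28, 18 and 18 in BPAP libraries and 27, 20 and 13 in DMSO libraries. These are 2.28, 1.5 and 1.48 CPM in BPAP cells and 2.48, 1.56 and 0.915 CPM in DMSO cells, and the BPAP values lie inside the DMSO range. Means were 1.75 ± 0.457 CPM in BPAP cells and 1.65 ± 0.784 CPM in DMSO cells, with a log2 fold change of 0.12 (edgeR adjusted p = 0.828). The 95% interval ran over -0.71 to 0.94, or 0.613-fold to 1.92-fold. A rise or a fall within that interval could not be told from none at this depth. Without BPAP 1 the log2 fold change was -0.12, and without DMSO 3 it was -0.19.

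Tiparp (ENSMUSG00000034640, chr3:65528410-65555518) encodes a mono-ADP-ribosyltransferase that modifies AHR and limits its activity. Its level was 148, 124 and 158 CPM in BPAP libraries and 164, 166 and 163 CPM in DMSO libraries. All BPAP values were below all DMSO values, and the BPAP libraries were spread far more widely, at 143 ± 17.4 CPM in BPAP cells against 164 ± 1.81 CPM in DMSO cells. The log2 fold change was -0.20 (SE 0.10, 95% interval -0.42 to 0.02), which did not pass (edgeR adjusted p = 0.152). After the correction for exon length and GC content it was -0.06 (adjusted p = 0.611). An antisense pseudogene, 4931440P22Rik, shares 223 of the 4358 exon bases of Tiparp and had 209 counts in all libraries, beside 11463 for Tiparp.

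Both AHR-inducible cytochrome P450 genes, whose enzymes oxidise aromatic hydrocarbons, were at or near 0. Cyp1a1 (ENSMUSG00000032315, chr9:57697613-57703822) had 0 counts in every BPAP library and 5, 2 and 2 counts in the DMSO libraries. The groups do not overlap, and DMSO 1 held more than the other two DMSO libraries together. Summed over a group, 0 counts in BPAP cells allow up to 0.0813 CPM (3 counts over the group), while the level was 0.240 CPM in DMSO cells. The DMSO level was 2.96-fold above that limit, and 1.87-fold above it without DMSO 1. The limit covers counting error of the BPAP counts only. That of the 9 DMSO counts is left out, so neither ratio is a lower bound. The gene was under the expression filter, and no fall was called. An exact permutation test of the CPM values gave p = 0.1 (2-sided), the smallest value that 3 against 3 libraries allow, and edgeR without the filter gave an adjusted p of 0.0503. Cyp1b1 (ENSMUSG00000024087, chr17:79706953-79715041), which oxidises hydrocarbons and oestradiol, had 0 counts in all 6 libraries, with the same limit of 0.0403 CPM.

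**Figure D2:**
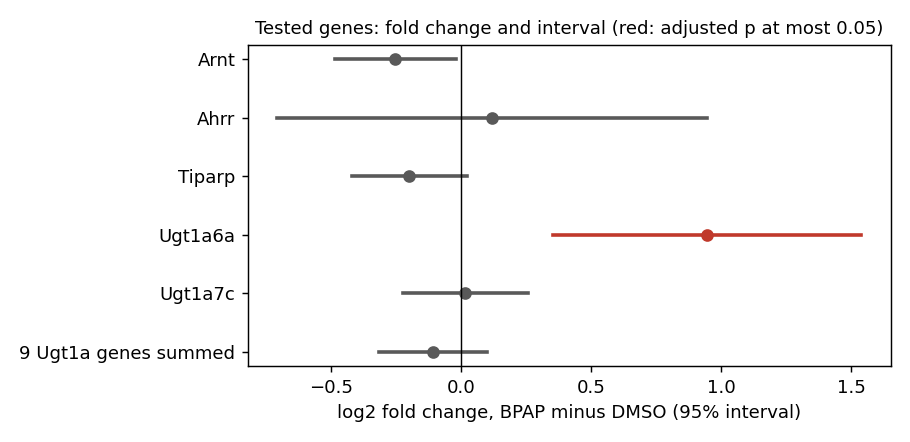
Log2 fold change (x axis, BPAP minus DMSO) with its 95% interval for the 5 tested members and for the sum of the 9 Ugt1a genes; red marks an adjusted p of at most 0.05. Ugt1a6a alone lies wholly above 0 (0.35 to 1.54), the Ahrr interval is wide at -0.71 to 0.94, and the summed Ugt1a locus spans 0 (-0.31 to 0.10).

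Ugt1a6a (ENSMUSG00000054545, chr1:88134809-88218997) was the member that rose. It had 56, 89 and 96 counts in BPAP libraries and 50, 40 and 38 counts in DMSO libraries, or 4.55, 7.40 and 7.87 CPM in BPAP cells and 4.59, 3.13 and 2.67 CPM in DMSO cells. BPAP 2 and BPAP 3 were above all DMSO libraries, whereas BPAP 1 was no higher than DMSO 1, so the groups overlap. The means were 6.61 ± 1.79 CPM in BPAP cells and 3.46 ± 0.999 CPM in DMSO cells (SD, n = 3 each), 1.93-fold higher in BPAP cells. The log2 fold change was 0.95 (SE 0.27, 95% interval 0.35 to 1.54, edgeR adjusted p = 0.0228). The call was lost without BPAP 2 (adjusted p = 0.0582), BPAP 3 (0.0721), DMSO 2 (0.0747) or DMSO 3 (0.0844). It was kept without BPAP 1 or DMSO 1.

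Ugt1a7c (ENSMUSG00000090124, chr1:88095062-88220002) encodes a UGT of the same locus that also accepts phenols, and held far more counts than Ugt1a6a. Its level was 72.3, 59.9 and 61.5 CPM in BPAP libraries and 70.4, 61.1 and 60.0 CPM in DMSO libraries, so the groups overlap almost wholly. Means were 64.5 ± 6.75 CPM in BPAP cells and 63.8 ± 5.74 CPM in DMSO cells, a log2 fold change of 0.02 with a 95% interval of -0.22 to 0.26 (edgeR adjusted p = 0.918). Its sign turned in other fits, to -0.0089 after the correction for exon length and GC content and to -0.07 without BPAP 1.

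The 2 genes are read from 1 locus, in which each Ugt1a gene has an exon 1 of its own and joins it to the same further exons. Of the 4312 merged exon bases of Ugt1a6a, 2170 (50.3%) are also exons of Ugt1a7c, and of the 4219 exon bases of Ugt1a7c, 2304 (54.6%) are shared with other Ugt1a genes. In the annotation (GENCODE M21) the 2 genes thus share more exon bases with each other than either shares with Ugt1a1 (1311). The joins of exon 1 to exon 2 show how far the transcripts can be told apart, and are printed with 40 bases on each side. Exon 2, at chr1:88215044-88215175, is in capitals. Exon 1 is chr1:88138378-88139331 for Ugt1a6a and chr1:88095064-88095978 for Ugt1a7c, on the plus strand of GRCm38.
Ugt1a6a: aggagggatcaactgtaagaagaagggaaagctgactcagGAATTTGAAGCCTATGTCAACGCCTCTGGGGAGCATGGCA
Ugt1a7c: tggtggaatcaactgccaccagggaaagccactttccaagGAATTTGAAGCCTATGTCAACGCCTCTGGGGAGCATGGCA
The letters before the join differ between the 2 printed transcripts and those after it are the same. Whether the further bases shared by the 2 genes take in the join printed for Ugt1a6a was not tested, so that join may not separate them. All 9 Ugt1a genes of the table share this start of exon 2. How the authors' counting divided reads of the shared exons is not given in the sources used here, so the value of each Ugt1a gene is uncertain. Gm20528, on the opposite strand, shares 394 of the exon bases of either gene.

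The division was uneven between replicates. Ugt1a6b had 5, 25 and 3 counts in BPAP libraries and 14, 7 and 253 in DMSO libraries. Ugt1a10 had 29, 30 and 47 counts in BPAP libraries and 30, 196 and 36 in DMSO libraries. Each thus stood high in 1 DMSO library only, Ugt1a6b in DMSO 3 and Ugt1a10 in DMSO 2. Ugt1a7c took 85.4%, 82.7% and 79.6% of the locus in BPAP libraries, and 87.1%, 73.6% and 67.9% in DMSO libraries. Its share was thus lowest in the DMSO libraries where another gene of the locus stood high. Ugt1a6a took 5.38%, 10.2% and 10.2% of the locus in BPAP libraries and 5.67%, 3.77% and 3.03% in DMSO libraries. The sum of the 9 genes, formed after the data were seen, was 84.6, 72.4 and 77.2 CPM in BPAP libraries and 80.9, 83.0 and 88.3 CPM in DMSO libraries. The groups overlap, with BPAP 1 inside the DMSO range. The sum averaged 78.1 ± 6.16 CPM in BPAP cells and 84.1 ± 3.83 CPM in DMSO cells, a log2 fold change of -0.11 with a 95% interval of -0.31 to 0.10 (edgeR adjusted p = 0.407). The locus total passed the threshold in none of the fits run, and its log2 fold change was -0.17 to -0.05 with 1 library left out.

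**Figure D3:**
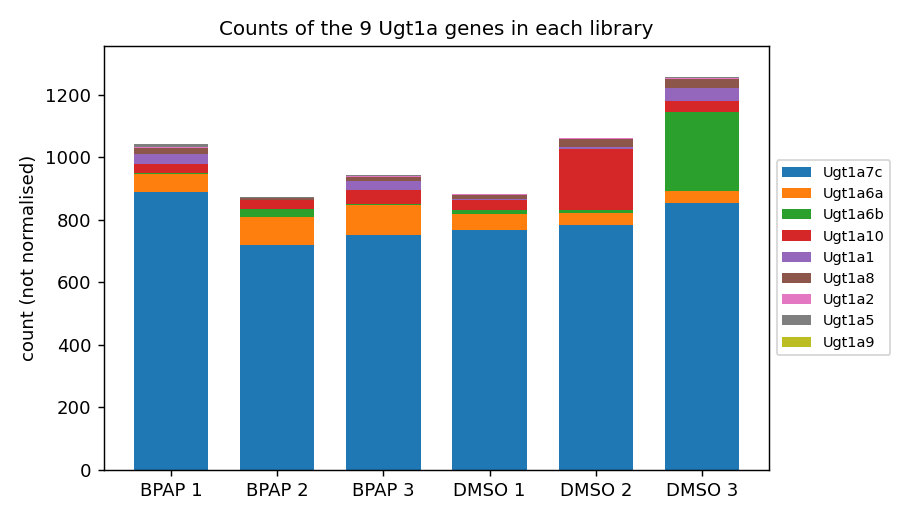
Counts, not normalised, of the 9 Ugt1a genes stacked for each library (y axis, counts; x axis, the 3 BPAP and then the 3 DMSO libraries). Ugt1a7c makes up most of every bar, Ugt1a10 is large only in DMSO 2 (196 counts) and Ugt1a6b only in DMSO 3 (253 counts).

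Sult1a1 (ENSMUSG00000030711, chr7:126672865-126676432) had 0, 2 and 1 counts in BPAP libraries and 1, 0 and 2 counts in DMSO libraries. Both groups thus hold 3 counts, at the limit used here, 0.0813 CPM in BPAP cells and 0.0801 CPM in DMSO cells. No fold change is given. Sgf29 on the opposite strand shares 61 of the 1507 Sult1a1 exon bases and had 1401 counts, and no strand setting is given in the sources used here.

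Levels can be compared between genes only per length, here in the deposited fragments per kilobase of transcript, scaled to depth (FPKM). Tiparp was highest, at 26.8 ± 3.05 FPKM in BPAP cells and 31.4 ± 0.740 FPKM in DMSO cells, above 91.3% of the genes with any count by its mean over all 6 libraries. Ugt1a7c and Arnt came next. Ugt1a7c had 12.9 ± 1.34 FPKM in BPAP cells and 13.0 ± 0.851 FPKM in DMSO cells, and Arnt had 10.8 ± 1.03 FPKM in BPAP cells and 13.1 ± 1.00 FPKM in DMSO cells. The ranges of these neighbours overlap in DMSO cells. In BPAP cells all Ugt1a7c values (14.5, 12.1 and 12.2 FPKM) are above all Arnt values (11.9, 9.86 and 10.6 FPKM). Ugt1a6a had 1.11 ± 0.30 FPKM in BPAP cells and 0.590 ± 0.155 FPKM in DMSO cells. Ahrr had 0.155 ± 0.0405 FPKM in BPAP cells and 0.148 ± 0.0671 FPKM in DMSO cells, above 25.1% of the genes with any count. Cyp1a1 was at 0 in BPAP cells and reached 0.172 FPKM in DMSO 1.

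In BPAP cells the order of Arnt and Ugt1a7c by their means turns with the length used, while in DMSO cells the Arnt mean is the higher on both scales. The length implied by FPKM is 13171 bases for Arnt, well over its 8007 merged exon bases, and 4950 for Ugt1a7c against 4219. Per kilobase of merged exons, Arnt had 17.9 ± 1.76 CPM in BPAP cells and 21.3 ± 2.16 CPM in DMSO cells, and Ugt1a7c had 15.3 ± 1.60 CPM in BPAP cells and 15.1 ± 1.36 CPM in DMSO cells. On that scale the ranges of the 2 overlap in BPAP cells, and Arnt lies above Ugt1a7c in every DMSO library. Tiparp stays above both on either scale, and Ugt1a6a and Ahrr below them, in each group.

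**Figure D4:**
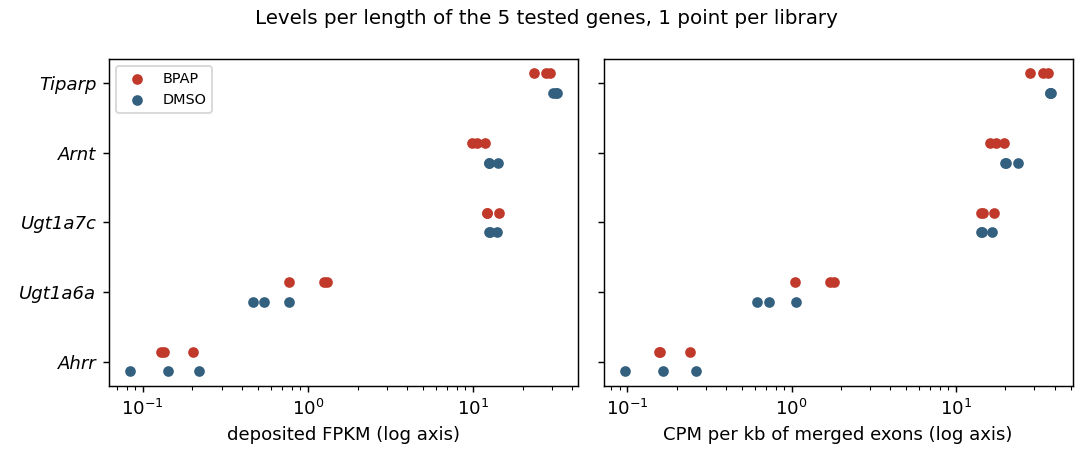
Level per length of the 5 tested members, 1 point per library, BPAP above DMSO; left, deposited FPKM, right, CPM per kilobase of merged exons, both on log axes. Tiparp is highest and Ahrr lowest on both scales, while Arnt and Ugt1a7c lie close together, and their means change order in BPAP cells only.

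Other genes of the AHR complex had counts, while Ahr had none. Of 10 genes of the complex and its regulators, 8 were tested, 1 rose and 0 fell, and their median log2 fold change was 0.15. The gene that rose was Ptges3, which encodes the HSP90 co-chaperone p23, at 76.5 ± 9.44 CPM in BPAP cells and 53.5 ± 7.15 CPM in DMSO cells (1.43-fold, edgeR adjusted p = 0.0124). That call was lost without DMSO 1 (adjusted p = 0.0522) and after the length and GC correction (0.0638).

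Of 18 genes of the AHR target battery, which include the members Ahrr, Cyp1a1, Cyp1b1, Tiparp and Ugt1a6a, 6 were tested, 2 rose and 0 fell, with a median of 0.20. Ugt1a6a was 1 of them. The other was Slc7a5, a large neutral amino acid transporter, at 79.3 ± 13.6 CPM in BPAP cells and 58.8 ± 4.76 CPM in DMSO cells (1.35-fold, edgeR adjusted p = 0.0268). It was lost without BPAP 2 (adjusted p = 0.0537), DMSO 1 (0.111) or DMSO 3 (0.0698), and in limma on log2(FPKM + 1) (0.0566) or log2(FPKM + 0.1) (0.0574). Another 5 genes of the battery, Cyp1a2, Cyp1b1, Gsta1, Gsta2 and Serpinb2, had 0 counts in all libraries. Nqo1, named after its values were seen, had 0 counts in every library but DMSO 2, which had 2.

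Among 18 other bHLH-PAS factors and PAS-domain coactivators, 9 were tested, 0 rose and 4 fell, and the median log2 fold change was -0.42. The genes that fell were the clock repressors Per1 (1.48-fold lower, edgeR adjusted p = 0.00392) and Per3 (1.54-fold lower, adjusted p = 0.0293) and the nuclear receptor coactivators Ncoa1 (1.33-fold lower, adjusted p = 0.0196) and Ncoa2 (1.35-fold lower, adjusted p = 0.0154). Per1 averaged 132 ± 12.3 CPM in BPAP cells and 195 ± 20.5 CPM in DMSO cells. The tested genes of this list have long exons, with a median of 7895 bases. After the length and GC correction, Per1 stayed past the threshold (log2 fold change -0.52, adjusted p = 0.00979), while Ncoa1, Ncoa2 and Per3 did not (adjusted p = 0.0820, 0.405 and 0.0912). Per3 was also lost on log2(FPKM + 1) and log2(FPKM + 0.1) in limma (0.0506 and 0.0521) and without BPAP 2, BPAP 3, DMSO 1 or DMSO 3 (adjusted p of 0.0698 to 0.110), and Ncoa1 without BPAP 1 (0.0609) or DMSO 1 (0.0517).

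Few other conjugation enzymes had counts. Of 22 UGT genes, 14 had 0 counts in all libraries, and all 6 that were tested belong to the Ugt1a locus. Ugt1a6a alone rose, 0 fell, and the median log2 fold change was -0.38, over genes whose division of reads is uncertain. Of 21 SULT genes, 19 were in the table, 15 of these had 0 counts in all libraries and 1 was tested. That gene, Sult2b1, which encodes a sulfotransferase of cholesterol and other hydroxysteroids, rose 1.95-fold (edgeR adjusted p = 0.0217). It had 43, 77 and 49 counts in BPAP libraries and 22, 35 and 33 counts in DMSO libraries, at 4.64 ± 1.55 CPM in BPAP cells and 2.36 ± 0.361 CPM in DMSO cells. The call was lost without BPAP 2 (adjusted p = 0.0565), DMSO 1 (0.0819) or DMSO 3 (0.0637).

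A list for the supply of the conjugating groups held 11 genes. Besides genes that make or carry UDP-glucuronate and the sulfate donor PAPS, it held Bpnt1, Impad1 and Slc35a3, which are not of that kind. Of the 11, 10 were tested, 1 rose and 0 fell, at a median log2 fold change of 0.03, where 31.7% of all genes tested passed in either direction. Whether the product of the gene that rose carries UDP-glucuronate was not tested. Slc35d2, which encodes a nucleotide sugar transporter of the Golgi, was at 6.57 ± 0.256 CPM in BPAP cells and 4.40 ± 0.0983 CPM in DMSO cells (1.49-fold, edgeR adjusted p = 0.0226), and its call was lost in each refit without 1 library other than BPAP 2 (adjusted p of 0.0528 to 0.0701). It was also lost in DESeq2 (0.0630) and after the length and GC correction (0.0528). After that correction Slc35a3, named after its values were seen, passed as higher (log2 fold change 0.25, adjusted p = 0.0351). Without it Slc35a3 stood at -0.16 (adjusted p = 0.235). Papss1, one of the PAPS synthases, had 71.1 ± 6.03 CPM in BPAP cells and 70.8 ± 3.96 CPM in DMSO cells (log2 fold change 0.00, adjusted p = 0.976), and Papss2 had 0 counts. These 2 were named after their values were seen.

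A list of 12 genes for deconjugation held the glucuronidase and sulfatases. It also held the sulfatase-activating genes Sumf1 and Sumf2 and the carboxylesterase genes Ces1d, Ces1f and Ces2c. Of the 12, 7 were tested, 1 rose and 2 fell, with a median of 0.15. The genes called were all sulfatase genes, and action of their enzymes on phenol conjugates was not tested. Arsg, a lysosomal sulfatase gene, rose to 5.40 ± 1.03 CPM in BPAP cells, against 2.25 ± 0.364 CPM in DMSO cells (2.41-fold, edgeR adjusted p = 0.00320). It overlaps Slc16a6 on the opposite strand by 48 exon bases, and Slc16a6 had 5147 counts against 281. Arsb, the lysosomal sulfatase gene of dermatan and chondroitin sulfate, fell to 283 ± 35.5 CPM in BPAP cells, against 435 ± 77.0 CPM in DMSO cells (adjusted p = 0.00841). Arsk fell 1.40-fold (adjusted p = 0.0230) and lost its call after the length and GC correction (0.393) and without DMSO 2 (0.0598) or DMSO 3 (0.0718).

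Of 12 genes for transporters that carry conjugates and drugs out of cells, 8 were tested, 0 rose and 2 fell, with a median of -0.25 and a median exon length of 8071.5 bases. Abcb4, which encodes a phospholipid transporter, had 46.5 ± 3.57 CPM in BPAP cells and 77.6 ± 4.96 CPM in DMSO cells (1.67-fold lower, edgeR adjusted p = 0.000971). Its neighbour and paralogue Abcb1b, which encodes a P-glycoprotein, had 68.5 ± 2.15 CPM in BPAP cells and 101 ± 4.42 CPM in DMSO cells (1.47-fold lower, adjusted p = 0.00170). Both passed in every refit run. After the length and GC correction 1 transporter gene also passed as higher, Abcg2 (log2 fold change 0.51, adjusted p = 0.0123), which is named after its values were seen and stood at 0.17 (adjusted p = 0.296) without it.

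Other phase II enzymes, which attach glutathione, methyl or acetyl groups, had 15 of 32 genes tested, of which 6 rose and 1 fell; the median log2 fold change was 0.50. Over all genes tested, 16.2% rose and 15.5% fell. The exons of these enzyme genes are short, with a median of 2470 bases, and after the length and GC correction 3 rose. In that corrected fit, 1372 of all 11665 genes tested rose. Gsto1, an omega-class glutathione transferase gene, had 75.6 ± 5.83 CPM in BPAP cells and 33.3 ± 3.12 CPM in DMSO cells (2.27-fold, edgeR adjusted p = 0.000258). Gstm1, a mu-class gene with near-identical paralogues and so of uncertain count, rose 1.81-fold (adjusted p = 0.00131), and Comtd1, a gene of a catechol-methyltransferase domain, rose 1.62-fold (adjusted p = 0.00216). Mgst2, a microsomal glutathione transferase gene, fell 1.71-fold (adjusted p = 0.00182). Comtd1 shares exon bases with genes on the opposite strand.

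Taking all 10 lists, 79 of 168 genes were tested, of which 20.3% rose and 12.7% fell, beside 16.2% and 15.5% of all genes tested.

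**Figure D5:**
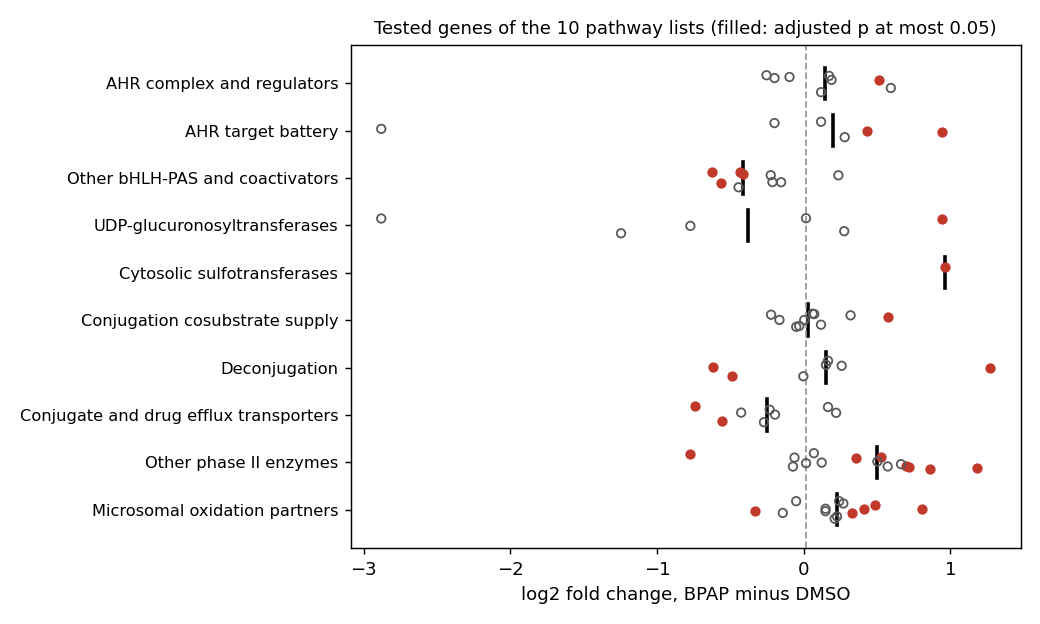
Log2 fold change (x axis, BPAP minus DMSO) of each tested gene of the 10 lists (rows); filled red points have an adjusted p of at most 0.05, black bars are list medians and the dashed line is the median of all genes tested (0.02). The list of other bHLH-PAS factors and coactivators has its median at -0.42 and the list of other phase II enzymes at 0.50; the SULT list holds 1 tested gene.

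The genes whose profiles over the 6 libraries were most like each tested member were sought among 9200 or 9201 genes with a mean of at least 100 counts. Likeness was the root mean square difference of centred log2 CPM, and a smaller value is a closer profile. Closest to Arnt were Pik3r4 (0.0186) and Mr1 (0.0248), where the median gene was at 0.249. For Tiparp they were Npm1 (0.0203) and Hbp1 (0.0273), with a median of 0.234, and for Ugt1a7c they were Akr1b10 (0.0346) and Dcp1b (0.0352), with a median of 0.225. The 2 members with few counts had more distant neighbours: Ndufb4 (0.169) and Dynlrb1 (0.205) for Ahrr, and Gm21975 (0.171) and Rbm42 (0.175) for Ugt1a6a. The 6 libraries fall into 2 groups, so a like profile carries the same group difference and is a description.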

How the data were processed

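Total RNA of 3 BPAP and 3 DMSO libraries was extracted with TRIzol and made into libraries with the VAHTS Universal V6 kit, per the labels' protocols. The authors deposited 1 table with raw counts and FPKM values per gene and library. Per the submitters' processing notes, HISAT2 2.0.4, StringTie 1.3.3b and edgeR were used with GRCm38. The counting of shared or antisense reads is not given in the sources used here.

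The deposited counts of 11711 genes that passed edgeR's expression filter were scaled by TMM and compared by the quasi-likelihood test of edgeR (version 4.0.16 in R 4.3.3, with robust estimates and no term but treatment). Adjusted p-values are 2-sided, by Benjamini-Hochberg over all genes tested, with a threshold of 0.05. CPM values are TMM-normalised, with some exceptions. The marker sums, the limits from 3 counts and the pooled group levels of Cyp1a1 and Sult1a1 use library totals without TMM. Each pair of libraries differed by more than sampling noise, with chi-square over degrees of freedom of 6.64 or more. Merged exon length and GC content came from GENCODE M21 (11665 of the genes tested), and the correction for both took out each library's lowess trend (span 0.3). Limits from 3 counts cover counting error only, while the intervals of log2 fold changes are those of the edgeR fit and include the spread between libraries.

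The members and lists were chosen with earlier results of these data known. All members were named, with up to 4 genes past the threshold per list by smallest p, and the 2 genes most like each member. Alternatives were other scalings, no filter, DESeq2 1.42.0, limma 3.58.1 on counts or on log2 FPKM with 1 or 0.1 added, a replicate term, that correction and each library left out. The planned comparison of UGT proteins was not made.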

Additional observations from a re-analysis of the deposited data

How the results depend on the processing

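Of the 5 tested members, Arnt, Tiparp and Ugt1a6a kept their direction in every refit of their own counts. Ugt1a6a (0.95) gave 0.94 with an adjusted p of 0.0625 with the replicate block and the length and GC correction together, and 0.78 to 1.17 with 1 library left out. The count of members that rose (1) was 0 in that fit, 0 to 1 with 1 library left out, and 0 on log2(FPKM + 1) or log2(FPKM + 0.1), where Ugt1a6a was under the minimum mean of 1 FPKM and was not tested. Ugt1a7c (0.02) was -0.014 on log2(FPKM + 1), -0.016 on log2(FPKM + 0.1), -0.0089 after the length and GC correction, -0.010 with the block as well, and -0.071 to 0.073 with 1 library left out. With the 9 Ugt1a genes summed, chosen after the data were seen, the value for both was -0.11. Ahrr ran over -0.19 to 0.49 with 1 library left out. Where no cause is named, the cause was not tested.

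Whether the replicate numbers pair the libraries was not settled. Deviations of same-numbered libraries correlated only weakly, at 0.101, 0.0542 and 0.0098. Each BPAP library correlated best with its own number, as did DMSO 1 and DMSO 2, while DMSO 3 correlated best with BPAP 2 (0.0454). With the replicate block, 4236 genes passed against 3715, and 1 member was called lower against 0: Arnt, at -0.25 with an adjusted p of 0.0306. Cyb5a lost its call (adjusted p = 0.0574). With the length and GC correction as well, Cyb5a (0.112) and Slc35d2 (0.0774) did not pass.

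Genes that rose numbered 1244 to 1654 with 1 library left out, against 1901, and list genes that rose 10 to 14, against 16. The 1244 came without DMSO 1 and the 10 without DMSO 3. List genes that fell numbered 6 after the correction, against 10. Over all genes, 1268 of 11665 tested fell after it, against 1814 of 11711 before, and 1372 rose, against 1901. Of the 2640 genes that passed after it, 2030 were among the 3715 that passed before. Per kilobase of merged exons, BPAP and DMSO means were 17.9 and 21.3 for Arnt, 32.9 and 37.7 for Tiparp, 1.53 and 0.803 for Ugt1a6a, and 15.3 and 15.1 for Ugt1a7c. The longer XRE motif was in 1 member promoter against 5. Depth limits what can be said of Ahr and Cyp1b1 (0 counts in all libraries), Sult1a1 (6), Cyp1a1 (9) and Ahrr (124).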

Other observations

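Among 18 genes of microsomal oxidation and its partners, 13 were tested, 4 rose and 1 fell, and the median log2 fold change was 0.23. Cyb5a, the gene of cytochrome b5, which passes electrons to P450 enzymes, had 77.1 ± 14.8 CPM in BPAP cells and 43.9 ± 8.82 CPM in DMSO cells (1.75-fold, edgeR adjusted p = 0.00873), a call lost with the replicate block (0.0574) and with the block and the length and GC correction together (0.112). Cyp51, which encodes a demethylase of cholesterol synthesis, had 103 ± 7.19 CPM in BPAP cells and 73.3 ± 3.48 CPM in DMSO cells (1.40-fold, adjusted p = 0.00408), and it shares exon bases with Akap9 on the opposite strand. Ephx1, the gene of microsomal epoxide hydrolase, rose 1.33-fold (adjusted p = 0.0166), a call lost without DMSO 1 (0.0556) or DMSO 3 (0.0608) and after the length and GC correction (0.331). Cyp4f13, a gene of the fatty acid hydroxylase family, fell 1.26-fold (adjusted p = 0.0361), a call kept only without BPAP 3 among the refits that left out 1 library. Cyp20a1, a P450 gene named after its values were seen, also rose, 1.26-fold (adjusted p = 0.0486), a call lost after the length and GC correction (0.320). After that correction 2 genes of this list rose and 1 fell, where 1372 of all 11665 genes tested rose and 1268 fell.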
